A study of Mus musculus with 5 samples.

Results

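Spp1, Gpnmb, Trem2, Cd9, Lgals3, Fabp5 and Arg2 are genes most of which are known as markers of macrophages that gather in scarred or fatty liver, and here they were followed in the monocytes of the regenerating mouse liver. They are 7 of the 31053 genes in the deposited matrices, listed by name. The list was chosen by measured values, namely the levels of these genes in monocytes of these same libraries, so their levels and differences there are given as a description, with no test. Each is a protein-coding gene of the mouse genome, build GRCm38: Spp1 at chr5:104435118-104441050, Gpnmb at chr6:49036546-49070929, Trem2 at chr17:48346401-48354147, Lgals3 at chr14:47367751-47386160, Fabp5 at chr3:10012548-10016607 and Arg2 at chr12:79130777-79156301, all on the plus strand, and Cd9 at chr6:125460266-125494791 on the minus strand.

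Liver cells of C57BL/6J mice were sequenced as single cells in 5 libraries of 1 sample each: pups at postnatal day 14 (P14), an adult control (also called the control), and adults 24 h, 48 h or 96 h after PHx (partial hepatectomy), an operation that takes out most of the liver and starts its regrowth. The age in the labels is adult for the control, and a protocol text gives 8 weeks for the adult samples, the control included; no transgene or drug is named in the labels, and all cells were freed by perfusion and passed over a dead-cell removal kit. The number and sex of the animals are not given in the sources used here. The same text counts the adult control among the operated samples, but by title, source and age it is a control, and it was used as one. Its lane code also differs from that of the other 4 libraries, so lane and group cannot be told apart.

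Liver macrophages have several origins: resident Kupffer cells line the sinusoids, and monocytes from the blood enter after injury and can become macrophages. In scarred liver such newcomers switch on a shared set of genes for binding lipid and debris, for handling fatty acids and for secreting matricellular proteins. Spp1 encodes osteopontin, a secreted protein that binds integrins and CD44, and in healthy liver it is also a product of bile duct cells. Trem2 is a lipid receptor that signals through the adaptor Tyrobp, Gpnmb is a glycoprotein of lysosomes and the cell surface, and Cd9 is a tetraspanin of the cell membrane. Lgals3 is galectin-3, a lectin that binds galactosides, Fabp5 carries fatty acids in the cytosol, and Arg2 is the mitochondrial arginase.

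The stretches just before the start sites of Spp1, Gpnmb and Trem2 are shown because these are the members whose monocyte signal lay in few cells or, for Trem2, mostly in monocytes among the larger classes. RefSeq's promoter table (GRCm38.p6) holds 5 of the 7 members; those of Fabp5 and Arg2 were not used here. The 250 bases before the start site, 5′ to 3′ on the gene's strand, lie at chr5:104434861-104435110 for Spp1 (the first of 2 start sites listed), chr6:49036268-49036517 for Gpnmb and chr17:48346151-48346400 for Trem2. Capitals mark matches to 4 motifs searched on both strands, namely TGANTCA (a loose form of the AP-1 site), CACGTG (E-box), TCATGTG (M-box) and GAGGAAGT (PU.1). N stands for any base, and the first motif and the E-box read the same on both strands. No 2 matches overlap.
Spp1: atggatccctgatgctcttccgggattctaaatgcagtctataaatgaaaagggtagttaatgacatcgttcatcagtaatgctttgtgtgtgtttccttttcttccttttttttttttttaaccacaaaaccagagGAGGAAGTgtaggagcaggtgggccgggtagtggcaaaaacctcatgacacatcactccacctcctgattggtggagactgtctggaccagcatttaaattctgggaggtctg
Gpnmb: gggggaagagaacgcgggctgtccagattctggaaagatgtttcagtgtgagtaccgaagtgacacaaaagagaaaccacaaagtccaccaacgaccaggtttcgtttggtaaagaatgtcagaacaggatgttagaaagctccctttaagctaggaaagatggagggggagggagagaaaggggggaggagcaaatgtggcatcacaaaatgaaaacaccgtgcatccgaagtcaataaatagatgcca
Trem2: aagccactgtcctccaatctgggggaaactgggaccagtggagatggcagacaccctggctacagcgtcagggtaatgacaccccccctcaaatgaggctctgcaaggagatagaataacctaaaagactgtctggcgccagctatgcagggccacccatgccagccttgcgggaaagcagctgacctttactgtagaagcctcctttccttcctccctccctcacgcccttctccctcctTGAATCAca
The Spp1 stretch held 1 PU.1 match, whose first base on the printed strand lies 113 bases before the start. The Trem2 stretch held 1 match to the loose form TGANTCA 9 bases before the start, with A at the free position (TGAATCA). The Gpnmb stretch, the second Spp1 start site and the windows of Cd9 and Lgals3 held none of these letters. Over all 32851 promoters of the table, the same windows held TGANTCA in 6.75%, CACGTG in 6.02%, TCATGTG in 3.25% and GAGGAAGT in 2.44%. A match is a description of letters, not of a bound site.

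A barcode counted as a monocyte with at least 1000 unique molecular identifiers (UMIs, each standing for 1 captured RNA molecule), at least 500 genes, under 30% mitochondrial UMIs, no UMI of Siglech, and at least 3 of the 6 monocyte markers Ms4a6c, Csf1r, F13a1, Ccr2, Chil3 and Clec4a3. This gave 15 monocytes in P14, 15 in the control and, in the order 24 h, 48 h and 96 h, 41, 48 and 30, 149 in all. Their median depth was 33693, 10757, 14511, 18903 and 12609 UMIs in the same order, out of library totals between 80927744 and 136110607 UMIs. Just inside the gate, with exactly 3 markers, were 4 to 9 barcodes per library, and just outside it, with 2 markers, were 11 to 48. At 24 h those just inside held Spp1 at 164 CPM and Lgals3 at 1441 CPM, and those just outside held them at 10.1 and 623 CPM. At 96 h the 9 barcodes just inside held 11 of the 12 Spp1 UMIs of that library's monocytes (54.1 CPM). CPM are UMIs per 1000000 UMIs of the summed cells, mitochondrial genes left out, and their intervals, all of 95%, cover counting error only. With 1 library per group no difference between libraries could be tested, and cells are not replicates. No monocyte barcode was shared between libraries, and 9 classed barcodes of any kind were.

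The gate fixed the 6 monocyte markers, so these do not check the label. Lyz2, the lysozyme of myeloid cells and no gene of the gate, stood at 7548 CPM in P14, 28161 in the control, and 10141, 14337 and 6956 CPM after PHx. Ly6c2, a marker of classical monocytes, stood at 1966, 1078, 888, 715 and 648 CPM in the order P14, adult control, 24 h, 48 h and 96 h. The neutrophil and myeloid precursor granule genes Elane, Mpo, Prtn3 and Ctsg are called granule proteases throughout, although Mpo encodes a peroxidase. They summed to 13552 CPM in P14 monocytes, above the 1853 CPM of the gate's own markers there. Their sum was 19.0 CPM in the control, and 2896, 1778 and 4088 CPM at 24 h, 48 h and 96 h. At least 2 of these 4 genes had a UMI in 11 of 15 P14 monocytes, in 0 of 15 adult control monocytes, and in 11 of 41, 15 of 48 and 7 of 30 after PHx. Kupffer cell markers summed to 4523 CPM in the control, with all 10 genes detected, against 335 CPM in P14 and 114, 302 and 232 CPM after PHx. In the control all 10 were found in 1 monocyte of 17482 UMIs, 1 other had 1 of them, and the rest had none. At 24 h the resident markers Clec4f, Timd4, Vsig4, Marco and Cd163 were at 0. Neutrophil markers ran from 73.0 CPM at 96 h to 3094 CPM at 48 h, with 8 of 8 genes detected at 48 h. The part of these other cells in the member levels was not tested beyond the splits given below.

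Hepatocyte markers were the largest other set in the monocytes of P14, the control, 24 h and 96 h. They summed to 16236 CPM in P14, 7004 in the control, and 3467, 734 and 6118 CPM at 24 h, 48 h and 96 h, with all 9 genes detected in each library. In the same order they stood at 168028, 62959, 56132, 70617 and 100148 CPM in hepatocytes and at 97149, 49778, 22921, 29444 and 54630 CPM in free RNA. At least 3 of them had a UMI in every monocyte but 1, which was at 48 h. The sums rested in part on single cells: the highest monocyte held 119561 CPM in P14, 85066 at 24 h and 125156 at 96 h, against medians per cell of 3276, 1524 and 4005 CPM. More than 10000 CPM was found in 2, 2, 1, 0 and 3 monocytes in the order P14, adult control, 24 h, 48 h and 96 h, and none of these cells had a Spp1 UMI. At the ratio of Spp1 to these markers in hepatocytes, the same amount of marker RNA would go with 0.191, 2.05, 3.85, 0.172 and 9.73 CPM of Spp1 in the order P14, adult control, 24 h, 48 h and 96 h.

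Spp1, the secreted ligand of the group, was high in monocytes at 24 h and low in the other libraries. P14 monocytes held 6 Spp1 UMIs (13.3 CPM), those of the adult control 1 UMI (6.34 CPM), those at 24 h 406 UMIs (546 CPM, 494 to 602), those at 48 h 44 UMIs (45.0 CPM) and those at 96 h 12 UMIs (22.5 CPM). The 24 h interval takes UMIs as independent, but 1 cell held 257 of the 406. Without that cell the level was 202 CPM, below the interval. The ratio to the adult control was 86.1 at 24 h, but with a single control UMI its counting interval ran from 15.4 to 3408. At 48 h the ratio was 7.09 (1.21 to 286), and the intervals at 96 h (3.54, 0.524 to 151) and P14 (2.10, 0.255 to 96.6) included 1. With at least 4 of the 6 markers the 96 h log2 ratio turned from 0.99 to -0.48, and without the monocytes rich in granule proteases that of P14 turned from 0.51 to -0.71.

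Few cells carried this signal. Spp1 had a UMI in 15 of 41 monocytes at 24 h, 10 of 48 at 48 h, 4 of 30 at 96 h, 2 of 15 in P14 and 1 of 15 in the adult control. At 24 h a single monocyte of 6366 UMIs held 257 of the 406 UMIs (63.3%), and the level without it was 202 CPM, 31.8 times the adult control. That cell had 4 monocyte markers, 15 Cd9 UMIs, 11 Lgals3 UMIs, 3 Trem2 UMIs, no Gpnmb and no Kupffer marker. The cells with 49, 33, 27 and 12 Spp1 UMIs had 2, 3, 3 and 2 of the 10 Kupffer markers, and the one with 14 had 0. No other monocyte at 24 h had more than 1 of them. After every cell was thinned to 2000 UMIs, 9 of 41 monocytes (22%, 10.6% to 37.6%, Clopper-Pearson) kept a Spp1 UMI at 24 h, 4 of 48 (8.33%) at 48 h, 2 of 30 (6.67%) at 96 h and 0 of 15 in both P14 and the adult control; 0 of 15 allows a share of up to 20% by the limit of 3 counts and 21.8% by Clopper-Pearson. Unthinned, the 24 h share was 36.6%.

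Free RNA and other cells bound the background of these values. Barcodes ranked 20001 to 60000, taken as empty droplets, held Spp1 at 7.34 CPM in P14, 18.5 in the control and, in the order 24 h, 48 h and 96 h, 15.9, 17.7 and 25. In UMIs, such droplets would have added 0.0499 UMIs in P14, 0.367 in the control and, in the order 24 h, 48 h and 96 h, 0.432, 0.24 and 0.581 to the monocyte sums. Among B cells, which are not known for Spp1, 0% to 1.136% had a UMI after the same thinning. At 24 h Spp1 was also found in single barcodes of other classes: 1 barcode held 156 of the 158 UMIs of T or NK cells, and 1 held 26 of the 27 UMIs of B cells. The T or NK barcode had 37878 UMIs, 27.1% of them mitochondrial, with 8 of the 9 hepatocyte markers and 2 bile duct markers.

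**Figure D1:**
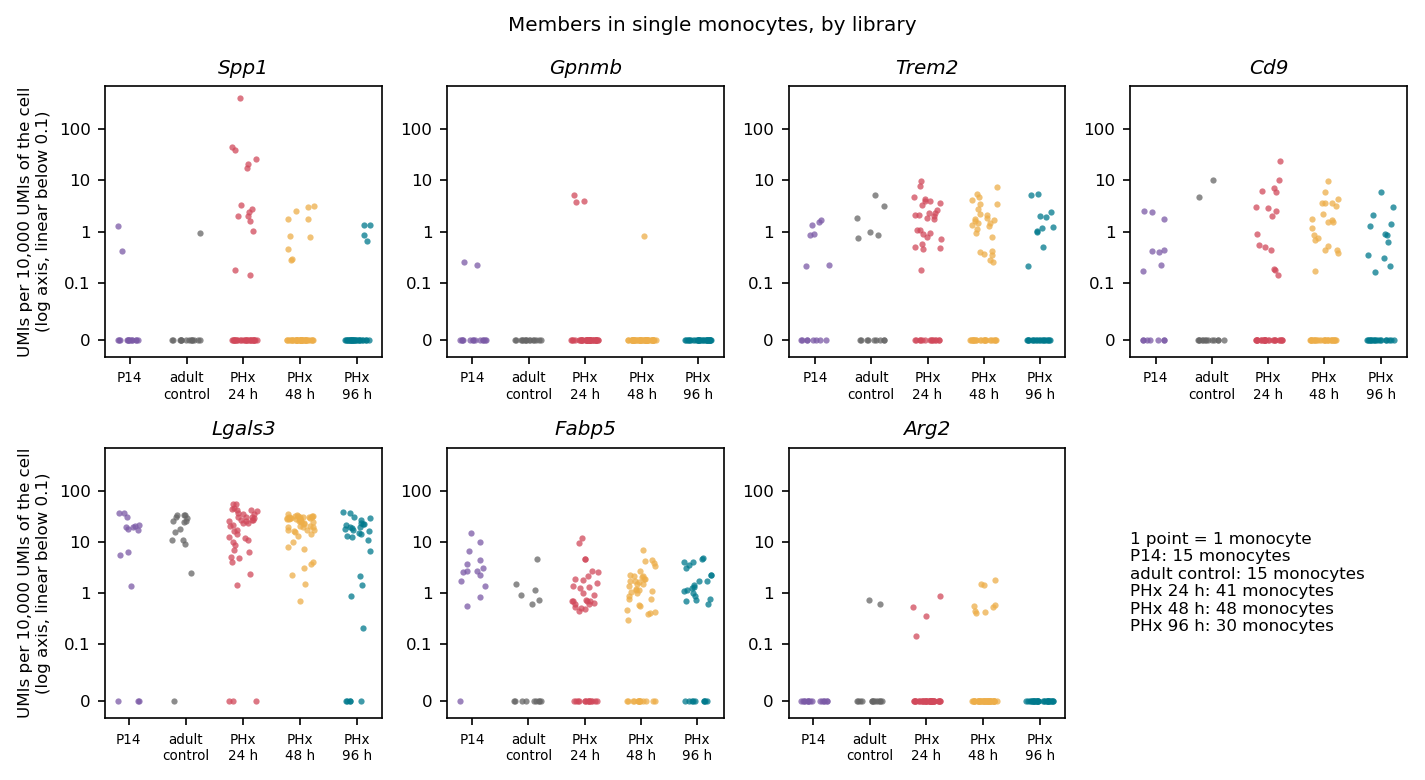
UMIs of each member per 10000 UMIs of the cell (y axis, logarithmic above 0.1 and linear below) in single monocytes (points) of each library (x axis). Spp1 at 24 h spans the widest range, with 15 of 41 cells above 0, whereas Lgals3 is above 0 in most cells of every library.

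Among the receptors and surface proteins, Trem2 was found in the monocytes of every library. It stood at 17 UMIs (37.7 CPM) in P14 monocytes, 15 (95.2 CPM) in the control, 89 (120 CPM) at 24 h, 101 (103 CPM) at 48 h and 27 (50.5 CPM) at 96 h. The adult control, 24 h and 48 h lay together, and P14 and 96 h lay below them. The P14 level was 2.52-fold below the adult control, with an interval of the ratio from 0.186 to 0.853, whereas the intervals at 24 h, 48 h and 96 h included 1. When barcodes with 2 of the 6 markers were let in, the P14 log2 ratio went from -1.14 to -0.0018 and the 96 h one from -0.80 to 0.32; in the control the 48 such barcodes held 0 Trem2 UMIs. The P14 ratio was also less than 2-fold, between -0.95 and -0.73 on the log2 scale, without monocytes that bore 3 markers of another class (hepatocytes not counted), with equal weight per cell, with TMM scaling (edgeR's normalization factors) and with a pseudocount of 50 CPM. The log2 ratio at 24 h, 0.30, turned to -0.01 under 1 alternative, and that at 48 h, 0.11, fell between -0.21 and -0.04 under 3. It was found in 7 of 15, 6 of 15, 27 of 41, 26 of 48 and 11 of 30 monocytes in the same order, and in 0 of 5297 hepatocytes.

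Gpnmb was found in few monocytes. It had 16 UMIs (21.5 CPM) in 3 monocytes at 24 h, 2 UMIs in 2 monocytes of P14, 1 at 48 h, and 0 in the control and at 96 h. The counting interval of the 24 h ratio to the control began at 0.818. Without its top cell the 24 h level was 13.6 CPM, below the 19.0 CPM at which 3 UMIs would stand in the control, so no difference was detectable at this depth. Outside monocytes, P14 hepatocytes held 19 UMIs in 19 of 1986 cells, and T or NK cells held 1, 7, 4, 8 and 1 UMIs in the order P14, adult control, 24 h, 48 h and 96 h. Of the 3 Gpnmb cells at 24 h, 2 also had Spp1 (10 of the 16 UMIs).

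Cd9 was present in every library. It had 32 UMIs (71.0 CPM) in P14, 7 (44.4 CPM) in the control, 76 (102 CPM) at 24 h, 83 (84.9 CPM) at 48 h and 30 (56.2 CPM) at 96 h. The ratio at 24 h was 2.30 (1.06 to 5.92), and without the top Cd9 cell of that library it was 1.86. Without monocytes that bore 3 markers of another class (hepatocytes not counted), Cd9 stood at 76.5 CPM at 24 h, 23.2 CPM in the control and 32.5 CPM in P14. All 7 Cd9 UMIs of the control lay in the 2 monocytes with more than 10000 CPM of hepatocyte markers, and without such cells Cd9 stood at 0 in the control and at 78.7, 102, 84.9 and 57.2 CPM in the order P14, 24 h, 48 h and 96 h. The ratios of Cd9 to the control thus rest on 2 control cells. The intervals of the other 3 ratios included 1. With equal weight per cell the log2 ratio turned from 0.57 to -0.68 in P14 and from 0.28 to -0.65 at 96 h, where it was also -0.00081 with 2 of the 6 markers.

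Lgals3 was abundant in the monocytes of every library. It had 633 UMIs (1405 CPM) in P14, 356 (2258 CPM) in the control, 1465 (1970 CPM) at 24 h, 2194 (2244 CPM) at 48 h and 542 (1015 CPM) at 96 h. The 96 h level was 2.23-fold below the adult control (interval of the ratio 0.392 to 0.515) and the P14 level 1.61-fold below it (0.545 to 0.710). In the 23 monocytes without granule proteases at 96 h, Lgals3 stood at 1659 CPM (1511 to 1817). The control, all of whose monocytes were of this kind, stood at 2258 CPM (2030 to 2506). The ratio was 0.872 (0.776 to 0.982) at 24 h and 0.993 (0.888 to 1.11) at 48 h. When barcodes with 2 of the 6 markers were let in, the 96 h log2 ratio turned from -1.15 to 0.067 and that of P14 from -0.68 to 0.48. That of 24 h turned from -0.20 to 0.96 and that of 48 h from -0.01 to 1.01. With equal weight per cell, without granule protease cells and with TMM scaling, the 24 h log2 ratio was 0.14, 0.15 and 0.064. The 48 h one was 0.11, 0.020 and 0.34 in the same order, and 0.036 without the top cell.

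Fabp5 was the member whose counting intervals lay above the adult control in all 4 other libraries; Spp1 and Cd9 also had ratios above 1 in all 4, but with intervals that included 1 in 2 and 3 of them and with the turns of sign given above. It had 210 UMIs (466 CPM) in P14, 9 (57.1 CPM) in the control, 152 (204 CPM) at 24 h, 154 (157 CPM) at 48 h and 112 (210 CPM) at 96 h. The ratios were 8.16 (4.22 to 18.1), 3.58 (1.84 to 7.98), 2.76 (1.42 to 6.15) and 3.67 (1.87 to 8.24) in the order P14, 24 h, 48 h and 96 h. Among monocytes without granule proteases alone, the intervals of the levels in all 4 overlapped that of the control, as given below. Its reads are uncertain in 1 respect, since a near-identical pseudogene exists in the mouse annotation that is no feature of these matrices. Without the monocytes rich in hepatocyte markers it stood at 305 CPM in P14 and 40.7 CPM in the control. Fabp5 was also the main member in free RNA, at 3042 CPM in P14, 279 in the control, and 269, 1132 and 474 CPM after PHx. At that rate empty droplets would add 20.7 of the 210 UMIs in P14, 5.54 of the 9 in the control, and 7.31, 15.4 and 11.0 UMIs after PHx. That rate does not cover hepatocyte RNA beyond the content of an empty droplet. P14 monocytes held hepatocyte markers at 16236 CPM, or 3091 CPM without the monocytes rich in them, beside 97149 CPM in free RNA. The part of such further RNA in the Fabp5 levels and ratios was not tested.

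Arg2, the enzyme of the group, was near the detection floor in monocytes. It had 2 UMIs (12.7 CPM) in the control, 5 (6.72 CPM) at 24 h, 15 (15.3 CPM) at 48 h, and 0 in P14 and at 96 h, where 3 UMIs would stand at 6.66 and 5.62 CPM. The intervals of the 24 h and 48 h ratios included 1. At least 3 neutrophil markers were found in 13 of the 48 monocytes at 48 h and 3 of the 41 at 24 h. Without monocytes that bore 3 markers of another class (hepatocytes not counted), Arg2 at 48 h stood at 7.08 CPM.

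**Figure D2:**
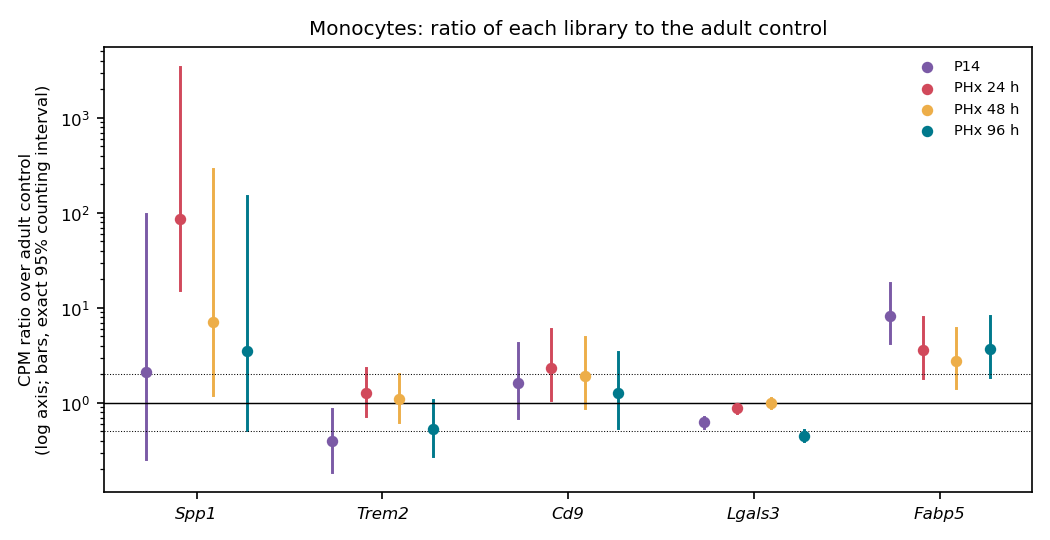
Ratio of CPM in monocytes of each library to the adult control (y axis, logarithmic) for the members other than Gpnmb and Arg2; bars are exact 95% counting intervals, the solid line marks 1 and the dotted lines a factor of 2. Spp1 reaches 86.1 at 24 h with a wide bar, and all 4 Fabp5 bars lie above 1.

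Counted with a pseudocount of 10 CPM among genes of at least 10 UMIs over both libraries, at least 2-fold higher members were 1 of 4 in P14 (Fabp5), 4 of 6 at 24 h (Spp1, Gpnmb, Cd9 and Fabp5), 2 of 6 at 48 h (Spp1 and Fabp5) and 1 of 5 at 96 h (Fabp5). Over all genes so measured, 15.4%, 12.9%, 10.8% and 14.0% were at least 2-fold higher in P14, 24 h, 48 h and 96 h. At least 2-fold lower were Trem2 in P14 and Lgals3 at 96 h, and no member at 24 h or 48 h, against 12.1%, 9.67%, 7.83% and 9.17% of all genes in P14, 24 h, 48 h and 96 h. The members were chosen on these levels and the 4 ratios share the adult control, so nothing is read from these counts. A pseudocount of 50 CPM left 2 members at 24 h and 0 at 48 h. The 24 h count includes Gpnmb, for which, as given above, no difference was detectable at this depth. Without monocytes that bore 3 markers of another class (hepatocytes not counted), Gpnmb stood at 9.98 CPM at 24 h.

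Member levels differed within libraries between monocytes with and without at least 2 of the 4 granule proteases, and so did depth. Median depth with and without was 39003 and 11596 UMIs in P14 and 39947 and 12718.5 at 24 h. It was 23439 and 17876 UMIs at 48 h and 32079 and 11166 at 96 h. The part of depth in the differences below was not tested. At 24 h, the 30 monocytes with fewer than 2 of the 4 proteases held 400 Spp1 UMIs (1098 CPM, 993 to 1211), and the 11 with 2 or more held 6 (15.8 CPM, 5.81 to 34.4). Without the top cell the former stood at 399 CPM. At 48 h the order was turned: 33 monocytes without held 5 UMIs (8.63 CPM, 2.80 to 20.1) and 15 with held 39 (97.9 CPM, 69.6 to 134), or 63.5 CPM without their top cell. Without the protease-bearing cells the 48 h log2 ratio of Spp1 to the adult control was 0.19, in place of 1.75. All 16 Gpnmb UMIs at 24 h were in cells without.

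Fabp5 was higher in the protease-bearing monocytes of every library that had them. The levels with and without were 525 and 110 CPM in P14, 279 and 126 CPM at 24 h, 218 and 116 CPM at 48 h, and 330 and 100 CPM at 96 h, and the 2 intervals overlapped in no library. Without their top cell, the protease-bearing monocytes stood at 339, 167.6, 137 and 279 CPM in the same order. At 24 h and 48 h these values lay within the intervals of the monocytes without, 92.5 to 168.5 and 89.6 to 146.8 CPM. Among monocytes without granule proteases alone, Fabp5 lay between 100 and 126 CPM in these 4 libraries, against 57.1 CPM (26.1 to 108) in the adult control. The P14 interval, on 7 UMIs in 4 cells, was 44.2 to 226 CPM, and that of 96 h was 66.5 to 145 CPM. With those of 24 h and 48 h just given, the intervals of all 4 libraries overlapped that of the control. Lgals3 went the other way at 24 h, with 1463 CPM with and 2498 CPM without, and at 96 h, with 307 and 1659 CPM. In P14 and at 48 h the intervals of Lgals3 with and without overlapped, at 1412 and 1365 CPM and at 2176 and 2290 CPM. Trem2 was 58.0 CPM with and 184 CPM without at 24 h, and 15.7 and 82.2 CPM at 96 h, with no overlap of the intervals, and 136 and 81.1 CPM at 48 h, where they overlap.

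**Figure D3:**
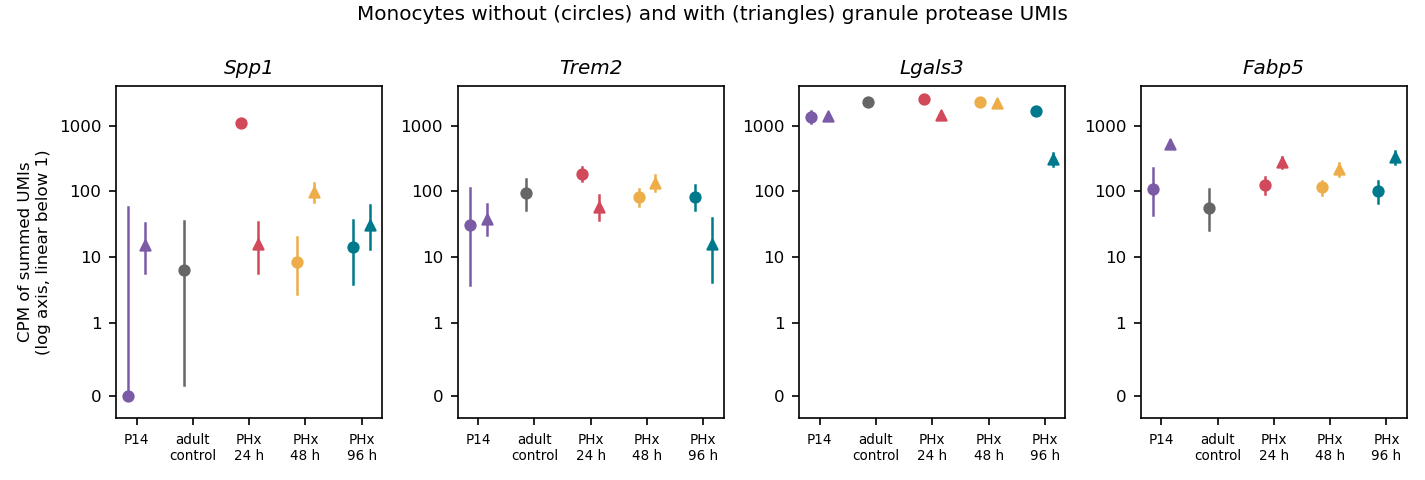
CPM (y axis, logarithmic above 1 and linear below) of 4 members in monocytes without (circles) and with (triangles) UMIs of at least 2 of Elane, Mpo, Prtn3 and Ctsg, by library (x axis). Bars are exact 95% Poisson intervals. Spp1 is at 1098 CPM in circles and 15.8 CPM in triangles at 24 h, and at 8.63 and 97.9 CPM at 48 h.

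Joint detection of the members in 1 cell was read at equal depth, from 1 random draw of 2000 UMIs per cell. The intervals do not cover the noise of that draw. As an example, Trem2 was found in 0 of 15 P14 monocytes thinned to 2000 UMIs and in 2 of 15 thinned to 1000. Thinned to 2000 UMIs, at least 2 members had a UMI in 4 of 15 monocytes of P14, 5 of 15 of the adult control, 20 of 41 at 24 h (48.8%), 25 of 48 at 48 h (52.1%) and 9 of 30 at 96 h. At least 3 members had a UMI in 0 of 15 monocytes of P14 and of the adult control, 6 of 41 at 24 h (14.6%, 5.57% to 29.2%), 3 of 48 at 48 h (6.25%, 1.31% to 17.2%) and 4 of 30 at 96 h (13.3%, 3.76% to 30.7%). These intervals overlap. The unthinned shares with at least 3 were 60%, 26.7%, 70.7%, 70.8% and 46.7% in the order P14, adult control, 24 h, 48 h and 96 h, beside the unequal depths given above. The most members seen in a cell were 6, at 24 h and at 48 h.

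Within the 24 h library, the 15 Spp1-positive monocytes were compared with the 26 negative ones after thinning. Cd9 stood at 532 CPM (15 UMIs) in the positive and 60.8 CPM (3 UMIs) in the negative cells, Trem2 at 177 (5 UMIs) and 142 CPM (7 UMIs), and Lgals3 at 1774 and 2511 CPM. At 48 h, with 10 positive and 38 negative cells, Cd9 stood at 157 (3 UMIs) and 180 CPM (13 UMIs), Trem2 at 52.2 (1 UMI) and 152 CPM (11 UMIs), and Lgals3 at 2922 and 2201 CPM. At 96 h, with 4 positive and 26 negative cells, Cd9 stood at 263 CPM (2 UMIs) and at 0, Trem2 at 0 and 122 CPM (6 UMIs), and Lgals3 at 1973 and 1055 CPM. Cd9 was thus higher in Spp1-positive cells at 24 h and, on 2 UMIs, at 96 h, and close in both at 48 h, while Trem2 and Lgals3 had 1 order at 24 h and the other at 48 h and 96 h; the difference between the libraries was not tested. Unthinned, the positive cells at 24 h held 42 Cd9 UMIs, 15 of them in the cell with the most Spp1, and the negative cells 34. Median depth was 9925 UMIs in positive and 16307 in negative cells at 24 h, and 25629 and 18903 at 48 h.

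Other genes that were higher in Spp1-positive cells of both libraries, ranked on the thinned cells of 24 h and 48 h together, were led by Thbs1, which encodes the matricellular protein thrombospondin-1. Its rank rested on 24 h, with 55 thinned UMIs in positive and 6 in negative cells, against 2 and 2 at 48 h. Of the 10 genes named by the rule, Fn1, the matrix protein fibronectin, had the most UMIs, with 152 in positive and 46 in negative cells at 24 h and 18 and 48 at 48 h. Without thinning at 24 h, Thbs1 had 156 UMIs in 7 of 15 positive monocytes and 33 UMIs in 8 of 26 negative ones. Fn1 had 635 UMIs in 14 of 15 positive and 536 UMIs in 24 of 26 negative cells, and the cell with the most Spp1 held 100 of them. The other 8 genes named by the same rule were Emp1, Atic, Cdca8, Sept11, Rgcc, Lasp1, Arf2 and Nr3c1. Unthinned at 24 h these 8 had 12 to 40 UMIs in the 15 positive and 4 to 41 in the 26 negative cells, and 4 of them (Rgcc, Lasp1, Arf2 and Nr3c1) had more UMIs in the negative cells, which were more and deeper. Cdca8 had a UMI in 3 of 15 positive and 11 of 26 negative cells.

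Across cell classes the members fell into separate patterns. Classes were gates of at least 3 markers of their own, given where a library had at least 10 such cells, and the ranges below run over the 5 libraries, which differ in condition. Small gates are thus left out, among them those of Kupffer cells and cholangiocytes. Among the classes given, Trem2 had a median of 95.2 CPM (37.7 to 120) in monocytes and 0 in each other class. The only value above 0 outside monocytes was 2.41 CPM, in endothelial cells of P14. Arg2 was a neutrophil gene here, at a median of 165 CPM (116 to 227) in neutrophils against 6.72 CPM (0 to 15.3) in monocytes. These ranges do not overlap.

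Lgals3 was highest in monocytes (median 1970 CPM, 1015 to 2258), with 11 basophils of 1 library next (1096 CPM). Neutrophils followed (747 CPM, 524 to 1116), with a range that overlaps that of monocytes. Cd9 was higher in neutrophils (448 CPM, 308 to 652) and endothelial cells (182 CPM, 116 to 380) than in monocytes (71.0 CPM, 44.4 to 102), whose range lay below both; 11 basophils of 1 library stood at 1406 CPM. Fabp5 ranges overlapped from class to class. Medians ran from endothelial cells (435 CPM, 210 to 1410) through neutrophils (299), monocytes (204) and hepatocytes (196) to erythroid cells (66.2), and the 11 basophils stood at 343 CPM. Spp1 was led by monocytes (22.5 CPM, 6.34 to 546) and hepatocytes (18.4 CPM, 1.97 to 159), which overlap, and Gpnmb had a median of at most 1.59 CPM in any class. Barcodes in the Kupffer gate numbered 5 to 9 per library, too few for a class level; they held 4 Spp1 UMIs, all in 1 cell at 48 h, and no Gpnmb or Arg2. Trem2 was found in that gate in every library, with 2, 2, 1, 2 and 1 UMIs in the order P14, adult control, 24 h, 48 h and 96 h, and the 2 UMIs of the control stood at 222 CPM, above the 95.2 CPM of its monocytes.

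**Figure D4:**
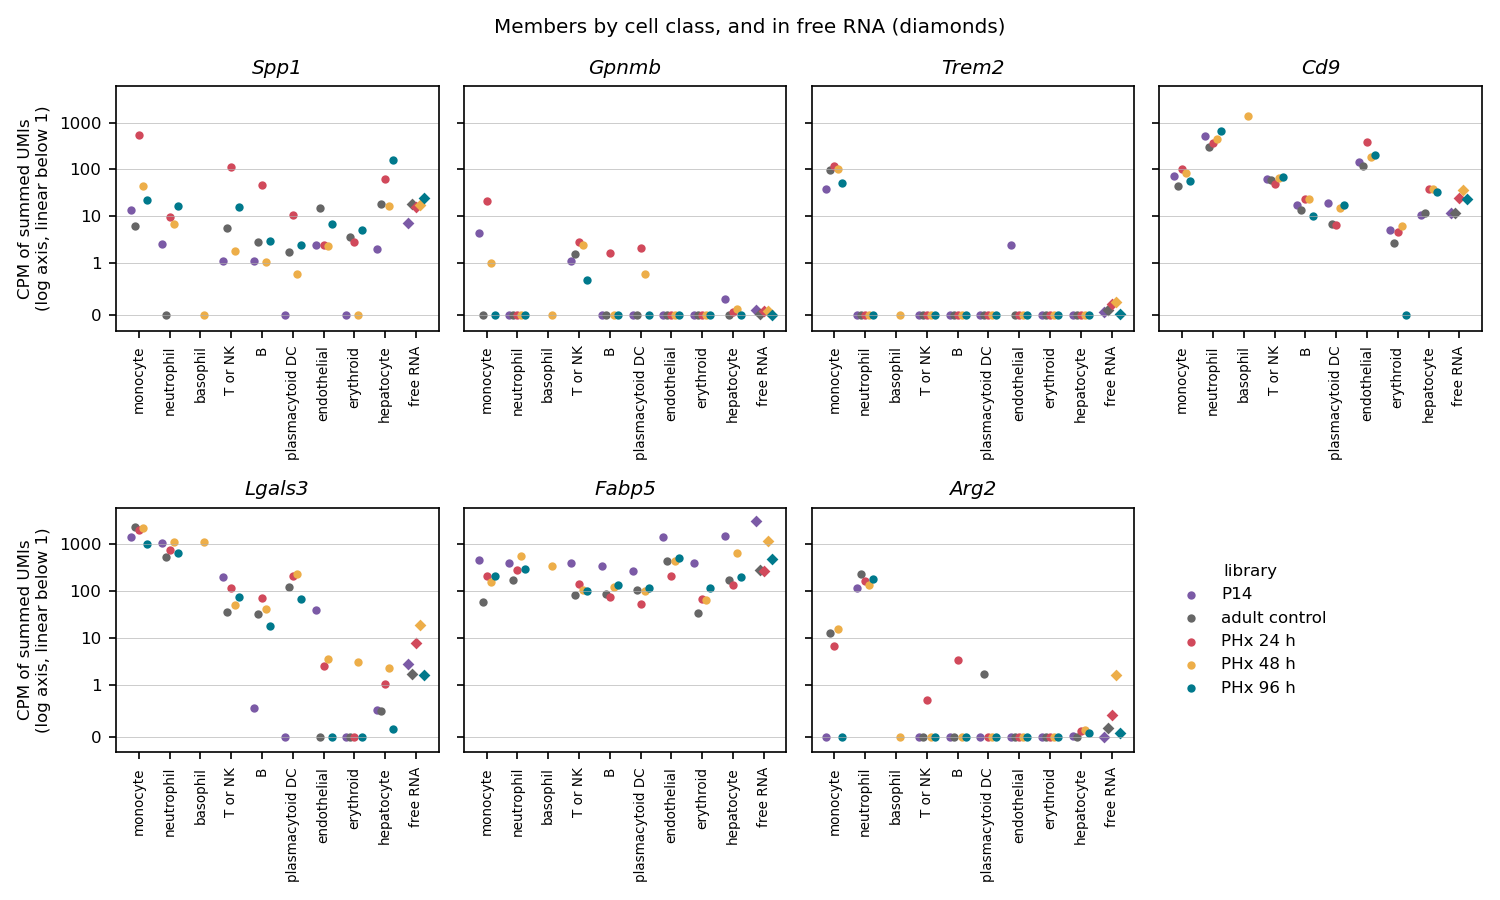
CPM (y axis, logarithmic above 1 and linear below) of each member by cell class (x axis), with 1 circle per library of at least 10 cells and diamonds for free RNA. Trem2 lies above 0 in monocytes and in 1 endothelial value of 2.41 CPM, besides free RNA at or below 0.265 CPM; Arg2 is highest in neutrophils, and Fabp5 is spread over every class.

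The genes whose level over 35 points of library and class was most like a member's were found by Pearson r of log2(CPM + 10) among 6987 genes. A point needed at least 20 cells, so the 15 monocytes of P14 and the 15 of the adult control gave none. Points of 1 library share its depth and free RNA. For Spp1 they were Ccl24 (r = 0.62), Ms4a8a (0.60), Cxcl3 (0.60), Vcan (0.60) and Ccl9 (0.60), all far less like it than the nearest genes of Trem2, F13a1 (0.99, a gene of the monocyte gate) and Ms4a8a (0.99). For Arg2 they were Il1f9 (1.00) and Cxcr2 (0.99, a gene of the neutrophil gate). For Lgals3 the nearest was S100a6 (0.93), for Cd9 Pdlim7 (0.93) and for Fabp5 Rdh5 (0.77).

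Hepatocytes, taken with at least 5000 UMIs and 5% to 30% mitochondrial UMIs, also carried Spp1, and most at 96 h. Spp1 stood at 1.97 CPM in 1986 hepatocytes of P14, 18.4 CPM in 865 of the adult control, 62.3 CPM in 1106 at 24 h, 16.6 CPM in 568 at 48 h and 159 CPM in 772 at 96 h. The levels at 24 h and 96 h were 3.38-fold (2.93 to 3.92) and 8.65-fold (7.54 to 9.96) above the adult control, that at 48 h lay at 0.900 of it (0.751 to 1.08), and that of P14 was 9.33-fold below it; the P14 and 48 h orders hold only under the gate's limit on bile duct markers, as given below. Free RNA of P14, the adult control and 48 h was at or above the hepatocyte level, and that of 24 h and 96 h was below it, at 15.9 and 25 CPM. Thinned to 2000 UMIs, 0.554%, 1.5%, 3.71%, 1.41% and 8.68% of hepatocytes kept a Spp1 UMI in the order P14, adult control, 24 h, 48 h and 96 h, and unthinned 5.04%, 14.0%, 14.2%, 13.6% and 25.3% had one.

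A minority of hepatocytes held most of it. The top 1% of hepatocytes held 58.5% of the Spp1 UMIs at 24 h and 48.9% at 96 h, against 32.8% in P14, 29.5% in the control and 40.0% at 48 h. At least 10 Spp1 UMIs were found in 22 hepatocytes at 24 h and 35 at 96 h, against 1 in P14, 2 in the control and 6 at 48 h. They held 71.6% and 83.2% of the hepatocytes' Spp1 UMIs at 24 h and 96 h. The highest single hepatocytes held 260 UMIs at 24 h and 305 at 96 h, and without them the class stood at 47.9 and 136 CPM. These Spp1-rich cells had median depths of 23874 and 21693 UMIs, against 18357 and 21757 in hepatocytes with no Spp1 UMI.

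Spp1-rich hepatocytes had less RNA of several cytochrome P450 genes than Spp1-negative ones. This comparison was added after the values were seen, with cells thinned to 5000 UMIs, and it names the 10 genes most different in each direction at both times, so the genes were picked on these values. Cyp2e1, a cytochrome P450 of pericentral hepatocytes, stood at 47.8 CPM in the Spp1-rich and 833 CPM in the Spp1-negative cells at 24 h, and at 45.5 and 1265 CPM at 96 h. Cyp2c29, a further cytochrome P450, stood at 35.8 and 1165 CPM at 24 h and at 22.7 and 546 CPM at 96 h. Glul, the glutamine synthetase of the innermost pericentral cells, stood at 23.9 and 148 CPM and at 15.2 and 238 CPM. Also lower were Cyp2c50, Cyp3a11, Cyp1a2, Oat, Pon1, Mup11 and Mup17.

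Higher in Spp1-rich hepatocytes were Hsd17b6, Aldh1b1, Sds, Etnppl, Atp1b1, Ctsc, Aldoa, Eno1, Apoa4 and Chdh. Hsd17b6, a steroid dehydrogenase, stood at 275 and 36.9 CPM at 24 h and at 887 and 147 CPM at 96 h. Sds, the serine dehydratase of periportal hepatocytes, stood at 370 and 111 CPM and at 902 and 275 CPM.

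The gate bears on the bile duct markers, since a hepatocyte had to have under 2 of the 6. Unthinned, exactly 1 of them was found in 14 of the 22 Spp1-rich hepatocytes at 24 h (63.6%, 40.7% to 82.8%) and 24 of the 35 at 96 h (68.6%, 50.7% to 83.1%), and in 35.4% and 29.5% of the hepatocytes with no Spp1 UMI. With at least 30 Spp1 UMIs it was 4 of 7 at 24 h and 19 of 20 at 96 h. In all these Spp1-rich cells the marker was Sox9, a transcription factor of bile duct cells, and Epcam, Krt19 and Krt7 had no UMI. Thinned, Sox9 stood at 59.7 CPM in the rich and 37.4 CPM in the Spp1-negative cells at 24 h and at 37.9 and 34.0 CPM at 96 h, on 5 UMIs in the rich cells each time. With the limit on bile duct markers lifted, 12 barcodes with 2421 Spp1 UMIs came in from P14, 2 with 77 at 24 h, 3 with 271 at 48 h, 1 with 0 at 96 h and 0 from the control. Spp1 then stood at 41.7 CPM in P14, above the control, and at 66.3, 33.7 and 159 CPM at 24 h, 48 h and 96 h.

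**Figure D5:**
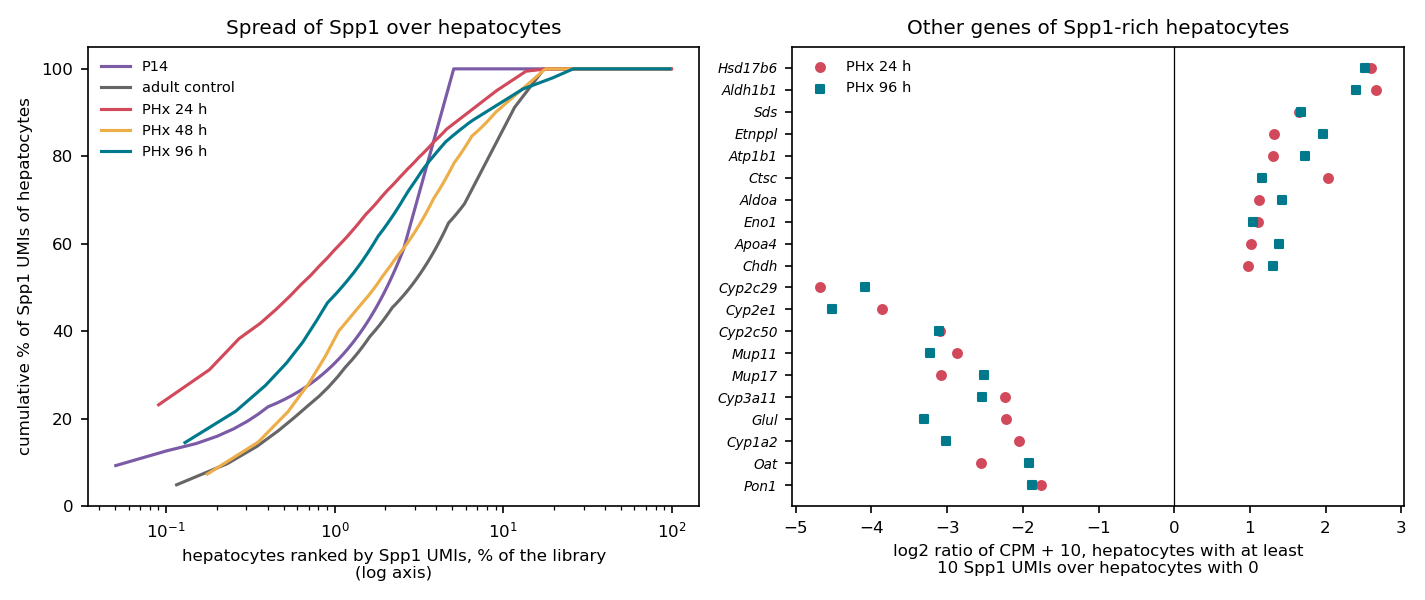
Left, cumulative share of the Spp1 UMIs of hepatocytes (y axis, percent) over hepatocytes ranked by Spp1 UMIs (x axis, percent of the library, logarithmic), 1 line per library; right, log2 ratio of CPM + 10 in hepatocytes with at least 10 Spp1 UMIs over those with 0, for 20 genes at 24 h (circles) and 96 h (squares). The top 1% of cells hold 58.5% of the UMIs at 24 h and 48.9% at 96 h, and the cytochrome P450 genes lie to the left of 0.

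Barcodes with at least 30 Spp1 UMIs numbered 44 over all libraries and held 5870 UMIs. Of these barcodes 27 were hepatocytes (7 at 24 h and 20 at 96 h), 9 were in the cholangiocyte gate, 3 were monocytes at 24 h, 1 was in the T or NK gate and 4 were in no class. The 9 cholangiocyte-gate barcodes, 5 of them from P14, held 2661 of the UMIs, with 1415 in 1 barcode. The highest single value was thus in the cholangiocyte gate, and the 3 monocytes held 339 UMIs.

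The other members differed from Spp1 in hepatocytes. Cd9 was 10.9 CPM in P14, 11.9 in the control, and 38.2, 37.5 and 32.5 CPM after PHx, which is 3.21-fold (2.68 to 3.86), 3.15-fold (2.62 to 3.80) and 2.72-fold (2.25 to 3.31) over the adult control; free RNA held it at 11.9, 11.7, 25.1, 37.0 and 23.2 CPM. Fabp5 was 1448 CPM in P14, 168 in the control and, in the order 24 h, 48 h and 96 h, 133, 644 and 196. Its P14 level was 8.61-fold (8.24 to 8.996) and its 48 h level 3.83-fold (3.65 to 4.02) over the adult control, and free RNA held more of it than hepatocytes did in every library. Gpnmb, Lgals3 and Arg2 lay at or below 2.29 CPM in hepatocytes of every library.

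Genes that work with the members, and states a monocyte can take, were read from 10 lists, in monocytes. Each count can be set beside all genes measured, of which 15.4%, 12.9%, 10.8% and 14.0% were at least 2-fold higher and 12.1%, 9.67%, 7.83% and 9.17% at least 2-fold lower in the order P14, 24 h, 48 h and 96 h. Of the osteopontin receptors (CD44 and integrin subunits), 0 were at least 2-fold higher in any library, and 3 of 5 in P14, 1 of 6 at 24 h, 2 of 7 at 48 h and 2 of 6 at 96 h were at least 2-fold lower. Cd44 stood at 209 CPM in P14, 539 in the control, and 429, 472 and 251 CPM after PHx. The list medians were -1.33, -0.40, 0.07 and -0.40 on the log2 scale, beside 0.05, -0.01, 0.02 and 0.06 over all genes in the order P14, 24 h, 48 h and 96 h.

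Genes of Trem2 signalling were measured too. Tyrobp, the adaptor that carries the Trem2 signal, stood at 1527 CPM in P14, 3781 in the control, and 2059, 2558 and 1887 CPM after PHx, highest in the control. The kinase Syk stood at 68.8, 133, 76.7, 135 and 48.7 CPM in the order P14, adult control, 24 h, 48 h and 96 h. Of the 8 genes, 1 at 48 h and 1 at 96 h (Lat2 both times) were at least 2-fold higher and 1, 3, 0 and 2 at least 2-fold lower, with medians of -0.54, -0.80, -0.10 and -0.46.

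Lysosomal and lipid genes that accompany the members in scar-type macrophages had list medians below those of all genes in each comparison. At least 2-fold higher were 1 of 20, 1 of 20, 2 of 21 and 2 of 21 in P14, 24 h, 48 h and 96 h, and at least 2-fold lower were 9, 5, 3 and 12, with medians of -0.82, -0.58, -0.34 and -1.06. Apoe, which carries lipid, stood at 4961 CPM in the control and at 2850, 1330, 619 and 1232 CPM in the others. Cd63, a tetraspanin of late endosomes, was the gene higher in all 4: it was at 0 in the control and at 131, 57.8, 29.7 and 29.95 CPM. The control also had the highest Kupffer marker sum, 4523 CPM, with all 10 markers in 1 of its 15 monocytes. The part of that cell in these values was not tested.

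Of the arginine and polyamine genes, Arg1, the cytosolic arginase, stood at 91.0 CPM in P14, 305 in the control and, in the order 24 h, 48 h and 96 h, 391, 39.9 and 258. Srm, the spermidine synthase, was at 0 UMIs in the control and at 120, 98.2, 57.3 and 101 CPM in the others. The list had 3 of 6, 4 of 7, 3 of 7 and 4 of 7 genes at least 2-fold higher and 2, 1, 3 and 1 at least 2-fold lower, with medians of 0.34, 1.5, 0.58 and 1.41. Of the glycolysis and hypoxia genes, 1 of 8, 4 of 10, 1 of 9 and 1 of 8 were at least 2-fold higher and none was lower, with medians of 0.37, 0.65, 0.58 and 0.16; Ldha, lactate dehydrogenase A, stood at 254 CPM in the control and 625 CPM at 24 h. All 10 mitosis genes were at least 2-fold higher in each of the 4 libraries, with medians of 3.51, 3.17, 3.05 and 3.66, beside the granule protease sums given above.

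Lists of monocyte types and states were counted in the same way. Of the patrolling monocyte genes, 7 of 8, 6 of 8, 3 of 9 and 4 of 9 were at least 2-fold lower and 1 was higher (Spn) in P14, 24 h, 48 h and 96 h, with medians of -2.03, -2.03, -0.80 and -0.89. Cx3cr1, the chemokine receptor of patrolling monocytes, stood at 114 CPM in the control and at 11.1, 12.1, 53.2 and 99.2 CPM in the others. Of the 9 classical monocyte genes, 0, 2, 0 and 1 were at least 2-fold higher and 5, 1, 0 and 4 lower, with medians of -1.21, -0.07, -0.20 and -0.73.

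Of the early response genes known to rise when tissue is dissociated, 0 of 8, 0 of 9, 1 of 9 and 0 of 9 were at least 2-fold higher and 5, 0, 0 and 2 lower, with medians of -2.02, -0.05, 0.34 and -0.70. Fos, a transcription factor of that response, stood at 82.1 CPM in P14, 419 in the control, and 672, 684 and 213 CPM after PHx. Of the inflammation genes, 0 of 4, 0 of 6, 1 of 7 and 1 of 4 were at least 2-fold higher and 3, 0, 2 and 2 lower, with medians of -2.14, 0.07, 0.24 and -1.40. The part of these states in the member levels was not tested.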

How the data were processed

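Per the labels' protocols, droplet libraries were made with a 10x version 3 kit from perfused livers, 1 library per group, and sequenced on a NovaSeq. The authors deposited 1 matrix of UMI counts per library, whole numbers without normalization, over 31053 genes and 6794880 barcodes, so empty droplets are included. The submitters' processing notes name Cell Ranger, bcl2fastq 2.17.1.14, Seurat 3.1 and build mm10, and per the file headers the matrices came from software version 3.0.2. The annotation is not given in the sources used here.

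UMI counts were summed per library and cell class and divided by the total without 13 mitochondrial genes (CPM). With 1 library per group no test was made. Intervals are exact 95% Poisson, Clopper-Pearson or conditional ratio intervals, and UMIs were taken as independent. Ratios and their intervals are of CPM as they stand; log2 ratios, list medians and counts past 2-fold are log2((CPM + 10)/(CPM + 10)). A gene was measured with at least 10 UMIs over both libraries. Thinning drew 2000 UMIs per cell in 1 random draw, and the intervals of thinned shares do not cover the spread between draws. Hepatocytes needed at least 6 of 9 markers and under 2 markers of every other class. No doublet caller was run; as alternatives, monocytes with at least 3 markers of another class were left out (hepatocyte markers, found in nearly all monocytes, not counted) and, added after seeing the data, those with more than 10000 CPM of hepatocyte markers. The ratio and thinning steps were tested on simulated data. The members and lists were chosen with earlier results of these data known. Named genes were all members, up to 4 genes of the highest mean CPM per list (Cd63, Lat2 and Spn fall outside it and were chosen after their values were seen), the 5 genes most like Spp1 with the nearest of other members, and the 10 genes highest in Spp1-positive monocytes. Gene positions are from GENCODE M21. Python 3.11.15, numpy 2.4.6, scipy 1.17.1 and edgeR (TMM factors only) were used.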

Additional observations from a re-analysis of the deposited data

Results flagged for a closer look

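The 24 h ratio of Fabp5 to the adult control went in opposite directions in 2 classes of cells of the same libraries: the log2 ratio was 1.68 in monocytes and -0.32 in hepatocytes. The difference was not tested, since each group is 1 library. In free RNA Fabp5 stood at 269 CPM at 24 h and 279 CPM in the adult control.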

How the results depend on the processing

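No paired analysis was possible because each group is 1 library. The 24 h log2 ratio of Spp1 in monocytes was 5.09 and lay between 3.40 (pseudocount 50 CPM) and 6.51 over all alternatives; at 48 h it was 0.19 without granule protease cells, an alternative added after seeing the data. The number of members at least 2-fold higher in P14 became 2 with 4 of 6 markers, a pseudocount of 1 CPM or without monocytes rich in hepatocyte markers. At 24 h it became 2 with a pseudocount of 50 CPM and 3 with doublet candidates left out, free RNA subtracted or equal weight per cell. At 48 h it became 5 with 2 of 6 markers, 3 with 4 of 6 markers, TMM scaling, a pseudocount of 1 CPM, without the top cell of each member or without monocytes rich in hepatocyte markers, 1 with equal weight per cell or without granule protease cells, and 0 with a pseudocount of 50 CPM. At 96 h it became 2 with 4 of 6 markers, a mitochondrial limit of 15%, TMM scaling, free RNA subtracted, a pseudocount of 1 CPM or doublet candidates left out, 0 without granule protease cells, and 3 without monocytes rich in hepatocyte markers. Spp1 turned sign at 96 h, to -0.48 with 4 of 6 markers, and in P14, to -0.71 without granule protease cells. Ratios of Trem2, Cd9 and Arg2 whose intervals included 1 also turned sign, Arg2 from -0.44 to 0.61 at 24 h with 2 of 6 markers and from 0.16 to -0.09 and -0.58 at 48 h with 4 of 6 markers and with doublet candidates left out. The Lgals3 log2 ratio at 96 h reversed to 0.067 with 2 of 6 markers. Those of P14, 24 h and 48 h also turned sign, under the settings given with Lgals3 above. Without thinning, the shares of monocytes with at least 3 members were 60%, 26.7%, 70.7%, 70.8% and 46.7% in P14, the adult control, 24 h, 48 h and 96 h. Spp1 in hepatocytes became 2.52 (P14), 21.7 (adult control), 22.4 (48 h) and 144 CPM (96 h) with up to 50% mitochondrial UMIs, 141 CPM (96 h) from 1000 UMIs, and 47.9 (24 h) and 136 CPM (96 h) without the top hepatocyte, and 41.7 (P14), 66.3 (24 h) and 33.7 CPM (48 h) without the limit on bile duct markers, added after seeing the data. The cause was not tested. Of the other values of single members and lists, 800 kept within their error or 1.5 times, and 161 moved. Depth limits Gpnmb, Arg2 and every ratio to the single Spp1 UMI of the adult control.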
